A study of Arabidopsis thaliana with 8 samples.

Results

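The genes described here are 6 pathogenesis-related (PR) genes of Arabidopsis thaliana: PR1 (AT2G14610), PR2 (AT3G57260), BG3 (AT3G57240), BG1 (AT3G57270), PR4 (AT3G04720) and PR5 (AT1G75040). They are 6 of the 20690 genes listed in at least 1 library and were chosen by identifier, as the classical PR markers and the beta-1,3-glucanase genes BG3 and BG1 that lie beside PR2 on chromosome 3. The choice was made with earlier results of these data known. All 6 passed the filter on low values, which asked for 3 or more on the deposited scale in 4 or more of the libraries, as did 18328 genes in all.

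Poly(A) RNA was sequenced from leaves 5 to 9 of Col-0 plants aged 4 weeks, grown in soil at 22 °C under 16 hours of light, with leaves taken 4 hours after the start of the light period. There were 4 libraries of wild-type plants (WT) and 4 of ABI3:MTA plants (mta), both in the Col-0 background. MTA is the catalytic subunit of the enzyme complex that writes N6-methyladenosine into mRNA. ABI3:MTA plants carry a loss-of-function mta allele and an MTA transgene driven by the ABI3 promoter, which is active in embryos, so the embryo survives and MTA is scarce in later tissues. A line with the ABI3 transgene but no mta allele was not analysed here. Whether the 4 libraries of a genotype came from separate plants is not given in the sources used here, and if they did not, the p-values reflect technical spread alone.

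PR proteins are small secreted proteins that accumulate in leaves after infection. PR1 is a sterol-binding protein of the CAP family, PR2, BG3 and BG1 are glucanases that cut the beta-1,3-glucans of fungal walls and of callose, PR4 is a hevein-like protein with a chitin-binding domain, and PR5 is a thaumatin-like protein. Salicylic acid acts on PR1, PR2 and PR5 through the receptor NPR1, which works with TGA transcription factors at their promoters, whereas Arabidopsis PR4 is better known for its response to ethylene and jasmonate. Because the proteins leave the cell, they are folded in the endoplasmic reticulum (ER) on the way.

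MTA itself was measured first, as a check of the labels. Its normalised read count (the deposited value rescaled between libraries) was 66.0, 84.7, 70.5 and 68.8 in WT 1 to 4 and 41.0, 61.3, 59.2 and 42.7 in mta 1 to 4. The groups did not overlap, and the log2 fold change (mta over WT, taken on log2(value + 1) here and below) was -0.52 with a standard error (SE) of 0.15 and an adjusted p of 0.0312 in limma. That call was lost without WT 2 (adjusted p = 0.0944), without WT 3 (0.0654), without WT 4 (0.0629) or without mta 1 (0.0536). Counts per gene do not separate transcripts of the transgene from those of the mutant allele.

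The libraries differed along 1 further axis. After the first principal component, which held 51.7% of the variance, the next (26.2%) separated libraries of the same genotype, and its gene loadings were related to transcript length with a Spearman's rho of -0.55, computed over genes that are not independent of each other. After scaling, WT 1 was the highest WT library for all 6 genes, and mta 4 was the lowest mta library for all 6. In the deposited values mta 4 was again lowest for all 6. There WT 1 was highest for 5, and WT 4 was just above it for PR2 (4219.85 against 4218.87). Whether that axis has a part in the members' spread was not tested, and results without WT 1 or mta 4 are given where they differ. Leaf identity was checked with marker lists: the summed level of the 5 mesophyll markers was 239670 to 307176 in WT and 304182 to 520532 in mta, and of the 5, CA1 and RBCS1A rose. Of 5 epidermal markers, PDF1 and LTP1 were called higher. Of 4 guard cell markers, FAMA and MYB60 were, and of 4 vascular markers, the phloem gene SUC2 was. Over all genes tested, 13.3% were called higher. The calls for LTP1, FAMA, MYB60 and SUC2 were each lost when at least 1 single library was left out. With the authors' scaling alone, 0 of 4 guard cell and 0 of 4 vascular markers were called, and 1 of 5 epidermal markers was called lower. The 5 epidermal markers summed to 8283 to 9208 in WT and 7039 to 11239 in mta, the 4 guard cell markers to 204.7 to 280.3 and 286.6 to 447.4, and the 4 vascular markers to 1089 to 1229 and 1299 to 1584. Of the 4 root, 3 flower and 4 seed markers, 2, 2 and 1 were listed in at least 1 library. The root hair markers EXPA7 and RHD6, the petal gene AP3 and the seed genes CRA1 and OLEO1 were not listed in any library. The seed markers summed to 0 to 2.22 in WT and 0 to 1.31 in mta. PYK10, a root glucosidase gene, was listed in all 8 libraries and fell from 131.0 ± 4.7 to 69.8 ± 19.7 (SD, n = 4, adjusted p = 0.0024 in limma). AG, the floral identity gene, was at 2.55 ± 0.34 and 5.18 ± 1.45 and was called higher (adjusted p = 0.0390), but the call was lost in 7 of 8 fits that left out 1 library, all but that without mta 2. In whole leaves, fewer cells of a type and less RNA per cell cannot be told apart, and the part of these marker differences in the results was not tested.

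Of the 6 PR genes, 5 rose in mta and 1, PR4, did not pass the test. Over all 18328 genes tested, 13.3% were called higher, 13.1% lower and 26.4% either way at an adjusted p of 0.05. The 5 that rose also had groups that did not overlap, as 13.8% of all genes did in that direction and 28.4% in either. All 5 also passed with a log2 fold change over 1, as 3.14% of all genes did. Because the 6 genes were chosen with earlier results of these libraries known, these counts are not independent evidence beside those shares. Per 1000000 units counted in genes, the 6 genes together took 1676 ± 92.3 (SD, n = 4) in WT and 6366 ± 386 (SD, n = 4) in mta. The summed share ranged from 1599 to 1796 in WT and from 5860 to 6799 in mta.

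**Figure D1:**
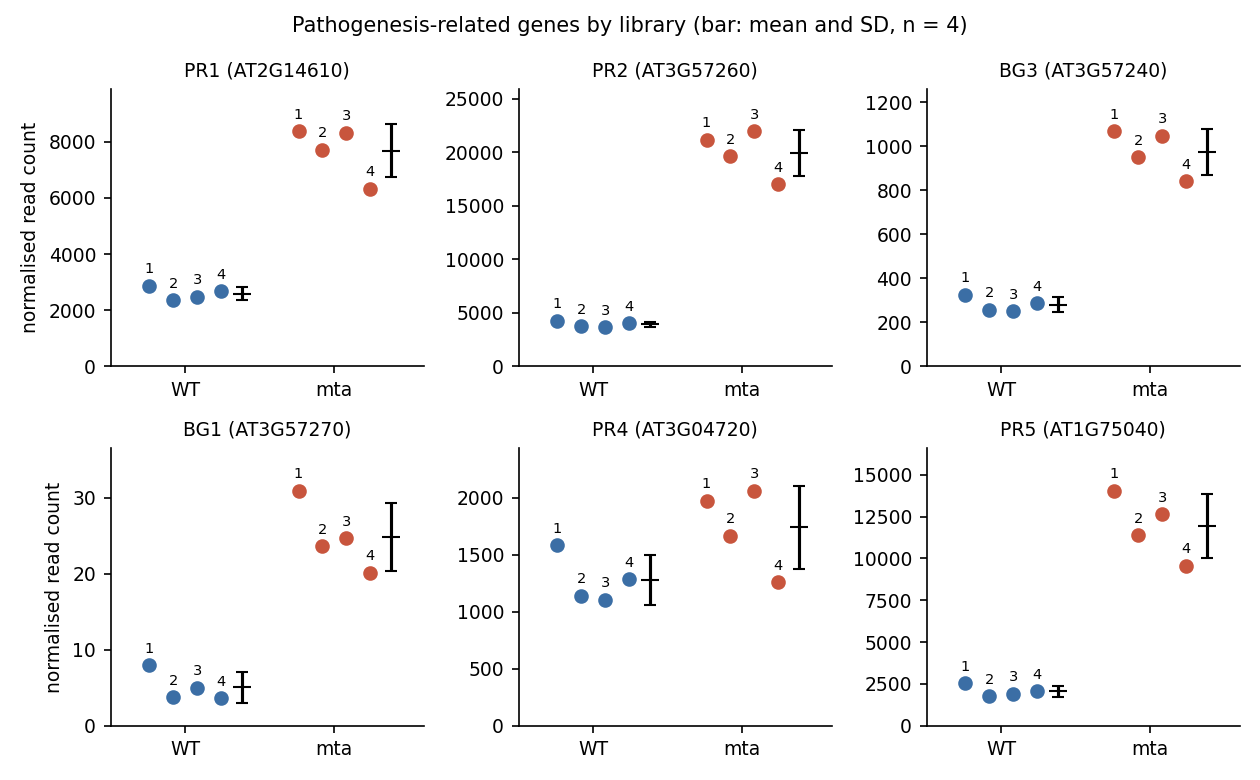
Normalised read count of each PR gene (vertical axes start at 0) in the 4 WT and 4 mta libraries, each point marked with its library number, with the mean and SD (n = 4) as black bars. For 5 genes every mta library lies above every WT library, while for PR4 mta 4 (1259) lies below WT 1 (1582) and WT 4 (1284).

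PR2, the vacuolar and extracellular beta-1,3-glucanase most used as a marker of the salicylic acid response, had the highest level of the 6. It stood at 4258, 3760, 3660 and 4014 in WT 1 to 4 and at 21175, 19642, 21963 and 17016 in mta 1 to 4. The lowest mta library was thus far above the highest WT library. The mean rose 5.09-fold, from 3923 to 19949, and the log2 fold change was 2.34 (95% interval 2.09 to 2.59, adjusted p = 4.18e-07 in limma).

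PR5, the thaumatin-like member, was at 2522, 1765, 1895 and 2060 in WT and at 14050, 11372, 12645 and 9563 in mta. All 4 mta libraries were above all 4 WT libraries, although each group spread more than for PR2, with a coefficient of variation of 16.0% in both WT and mta against 6.85% and 10.9% for PR2. Its mean rose 5.78-fold, with a log2 fold change of 2.53 (95% interval 2.21 to 2.85, adjusted p = 1.57e-06 in limma). Ranked by log2 fold change among all genes tested, PR5 stood at 36 and PR2 at 46.

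PR1, the gene most often used to report salicylic acid signalling, rose less than either. Its normalised read count was 2862, 2356, 2485 and 2672 in WT and 8366, 7704, 8321 and 6331 in mta. The WT libraries lay close together, and every mta library was higher. The mean rose 2.96-fold, from 2594 ± 221 to 7681 ± 949 (SD, n = 4), with a log2 fold change of 1.56 (SE 0.12, adjusted p = 8.52e-06 in limma).

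BG3 and BG1, the glucanase genes next to PR2, were measured at far lower levels. BG3 was at 326.0, 256.8, 251.6 and 287.1 in WT and at 1068, 949.4, 1048 and 840.5 in mta, a 3.48-fold rise of the mean. The groups stood well apart, and its log2 fold change was 1.80 (95% interval 1.55 to 2.05, adjusted p = 2.78e-06 in limma). BG1 was at 7.94, 3.73, 4.96 and 3.59 in WT and at 30.9, 23.6, 24.7 and 20.1 in mta, a 4.91-fold rise. WT 1 was the highest of the WT libraries for both genes, and no mta library reached down to it. The BG1 log2 fold change of 2.13 (95% interval 1.62 to 2.65, adjusted p = 0.000106 in limma) fell to 1.68 with a pseudocount of 4. BG1 rests on few counts: in units of the smallest step between deposited values, its libraries held 11 to 25 steps in WT and 75 to 90 in mta, where PR2 held 11099 to 16795 and 60951 to 75020.

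PR4, the hevein-like member, differed least. It was at 1582, 1140, 1105 and 1284 in WT and at 1976, 1668, 2064 and 1259 in mta. The groups overlapped, with mta 4 below WT 1 and WT 4. The ratio of means was 1.36 and the log2 fold change 0.44 (95% interval 0.07 to 0.80 before adjustment), which did not pass over all genes (adjusted p = 0.0752 in limma). Without mta 4 the value was 0.58 (adjusted p = 0.00543), and without WT 1 it was 0.51 (0.0352), both past the threshold in limma. Leaving out WT 1, mta 1 and mta 4 together gave 0.67 (adjusted p = 7.74e-05 in limma), so the call for PR4 depended on which libraries were used. For PR4, WT 1 was the highest WT library and mta 4 the lowest mta library, so leaving out either widens the difference by construction. With all 3 out, only mta 2 and mta 3 remained in mta. These fits are therefore no added evidence of a rise in PR4.

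**Figure D2:**
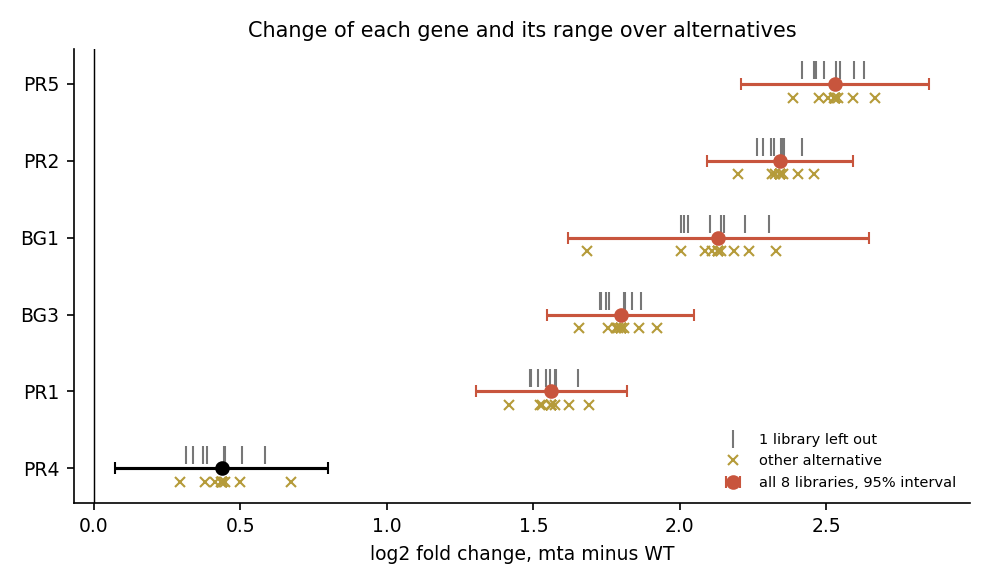
Log2 fold change (mta minus WT) of each PR gene from all 8 libraries with its 95% interval (red where the adjusted p was under 0.05, black where not), with the value after leaving out each library (grey ticks) and under other scalings, filters, pseudocounts and fits (crosses). PR5, PR2, BG1, BG3 and PR1 stay above 1 throughout, whereas PR4 stays between 0.29 and 0.67.

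The upstream sequences of PR2, BG3, BG1, PR4 and PR5 were compared, since PR2 and BG3 are neighbouring copies and PR5 and PR4 are the strongest and weakest responders by log2 fold change. Sequences are from RefSeq's TAIR10.1 assembly, 300 bases before the annotated start of each gene's first model, and these 5 genes all had a window. Local alignment of the windows gave a shared block only for PR2 and BG3, of 133 aligned bases of which 113 were identical (85.0%). The other 9 pairs aligned over 12 to 29 bases. The block lies 234 to 95 bases before the start of PR2 (chr3:21189954-21190093, minus strand) and 148 to 11 bases before that of BG3 (chr3:21183155-21183292, minus strand), and is printed 5′ to 3′ on the strand of the gene, with the bases identical between the genes in capitals.
PR2: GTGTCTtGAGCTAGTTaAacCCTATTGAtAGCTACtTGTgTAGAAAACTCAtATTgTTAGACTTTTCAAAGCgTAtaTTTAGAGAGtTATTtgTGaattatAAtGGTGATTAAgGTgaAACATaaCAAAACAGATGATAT
BG3: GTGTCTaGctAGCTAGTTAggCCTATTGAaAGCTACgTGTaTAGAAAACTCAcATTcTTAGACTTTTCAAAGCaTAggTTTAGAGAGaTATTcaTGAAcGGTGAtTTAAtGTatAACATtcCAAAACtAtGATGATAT
A second annotated model of PR2 starts 108 bases further upstream, so the last 14 bases of the PR2 block lie in its first exon.

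Within these windows, short motifs named for defence regulators were searched on both strands: TTGAC, the core of the W box bound by WRKY factors, TGACG, the core bound by TGA factors, GCCGCC, the GCC box of ethylene response factors, and CACGTG, the G box. TTGAC was present in 50.2% of all 27443 windows of the same length, TGACG in 21.5%, GCCGCC in 2.30% and CACGTG in 7.22%, and 8.26% held the overlap TTGACG. PR5 held TTGAC once on the opposite strand (printed as GTCAA), 165 to 161 bases before the start. BG1 held TTGAC 3 times, and BG3 held TGACG once, 11 to 7 bases before the start. PR2 held a G box at 239 to 234 bases and TTGAC once at 70 to 66 bases. That TTGAC lies downstream of the start of the second PR2 model, which is 108 bases before that of the first. PR4, which did not pass the test, held none of the 4 motifs, and neither the overlap nor the GCC box was found in any of the 5 windows. A match is a description of letters only. The PR5 (chr1:28177370-28177669, plus strand) and PR4 (chr3:1286761-1287060, minus strand) windows are shown, with motif matches in capitals, to set a gene that rose beside the one that did not pass.
PR5: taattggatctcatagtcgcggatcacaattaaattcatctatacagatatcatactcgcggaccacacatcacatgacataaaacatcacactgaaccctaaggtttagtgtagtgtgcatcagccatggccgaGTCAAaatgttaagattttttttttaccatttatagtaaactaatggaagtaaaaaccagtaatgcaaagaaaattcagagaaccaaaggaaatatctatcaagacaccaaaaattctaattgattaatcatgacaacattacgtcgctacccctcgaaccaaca
PR4: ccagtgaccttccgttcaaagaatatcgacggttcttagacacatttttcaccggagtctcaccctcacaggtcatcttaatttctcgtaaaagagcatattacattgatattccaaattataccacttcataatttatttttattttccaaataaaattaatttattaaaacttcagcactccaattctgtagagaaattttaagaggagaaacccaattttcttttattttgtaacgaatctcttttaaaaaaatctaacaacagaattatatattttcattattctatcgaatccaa

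Reads of one gene could in principle be counted for another where their transcripts are alike. The coding sequences of PR2 and BG3 were identical at 75.5% of aligned bases, those of BG1 and PR2 at 68.5% and those of BG3 and BG1 at 67.7%. The longest identical run between PR2 and BG3 transcripts was 23 bases. No 50-base window of any of the 6 transcripts occurred in another annotated transcript, and reads with more than 1 alignment had been counted apart by the authors. The closest relative of PR1 was PRB1 (83.5% identical), which was not listed in any library. The closest relative of PR5 was its neighbour AT1G75050 (80.0%), at 1.29 ± 0.25 in WT and 3.41 ± 0.86 in mta (SD, n = 4), too low to be tested.

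The sizes of the changes were compared between genes within libraries, since a plain ratio of genes inside 1 library does not depend on the scaling. The test used log2 ratios after 1 was added to each scaled value. For BG1, at 3.59 to 7.94 in WT, they therefore depend in part on the scaling and the added 1. Of the 15 pairs among the 6 genes, 10 differed, each at the smallest p that 70 assignments of 4 against 4 libraries allow (0.02857 in a two-sided exact permutation test, adjusted p = 0.0429 over the 15 pairs). In those 10 the ranges of the tested ratios in WT and mta did not overlap. The log2 fold change of PR4 was below that of each of the other 5 genes, by 1.13 (against PR1) to 2.09 (against PR5) on the log2 scale.

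PR1 rose less than PR2, PR5 and BG3. The ratio of PR1 to PR5 was 1.13 to 1.33 over the WT libraries and 0.595, 0.677, 0.658 and 0.662 in mta 1 to 4, so PR1 was above PR5 in every WT library and below it in every mta library. That difference was 0.97 on the log2 scale (exact permutation adjusted p = 0.0429). The ratio of PR1 to PR2 went from 0.627 to 0.679 over the WT libraries to 0.372 to 0.395 over the mta libraries, a difference of 0.78. BG3 exceeded PR1 by 0.24.

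Within the glucanase cluster, PR2 rose more than BG3. The ratio of PR2 to BG3 was 13.1 to 14.6 in WT and 19.8 to 21.0 in mta, a difference of 0.54 on the log2 scale. PR5 rose more than BG3 by 0.73. No difference was shown between PR2 and PR5 (PR5 higher by 0.19, exact permutation p = 0.114, adjusted p = 0.132), but without WT 1 it was 0.25 with an adjusted p of 0.0330. The 4 pairs of BG1 with PR1, PR2, BG3 and PR5 did not pass either, at exact permutation adjusted p of 0.0714, 0.429, 0.184 and 0.0714. Those with PR1 and BG3 passed without WT 1, and that with PR5 without WT 4. With a pseudocount of 4, PR2 exceeded BG1 by 0.66 and PR5 exceeded BG1 by 0.84 (exact permutation adjusted p = 0.0357 for both), and with a pseudocount of 0.5 BG1 exceeded PR1 by 0.68 (0.0390). The misses do not show that these genes changed alike, since the BG1 ratios spread widely in WT: without the added 1, PR2 over BG1 ran from 536.6 to 1120. Of these 4 pairs, only PR1 and BG1 had plain ratios that did not overlap. PR1 over BG1 was 360.7 to 745.4 in WT and 270.6 to 337.5 in mta, so its miss depended on the added 1.

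**Figure D3:**
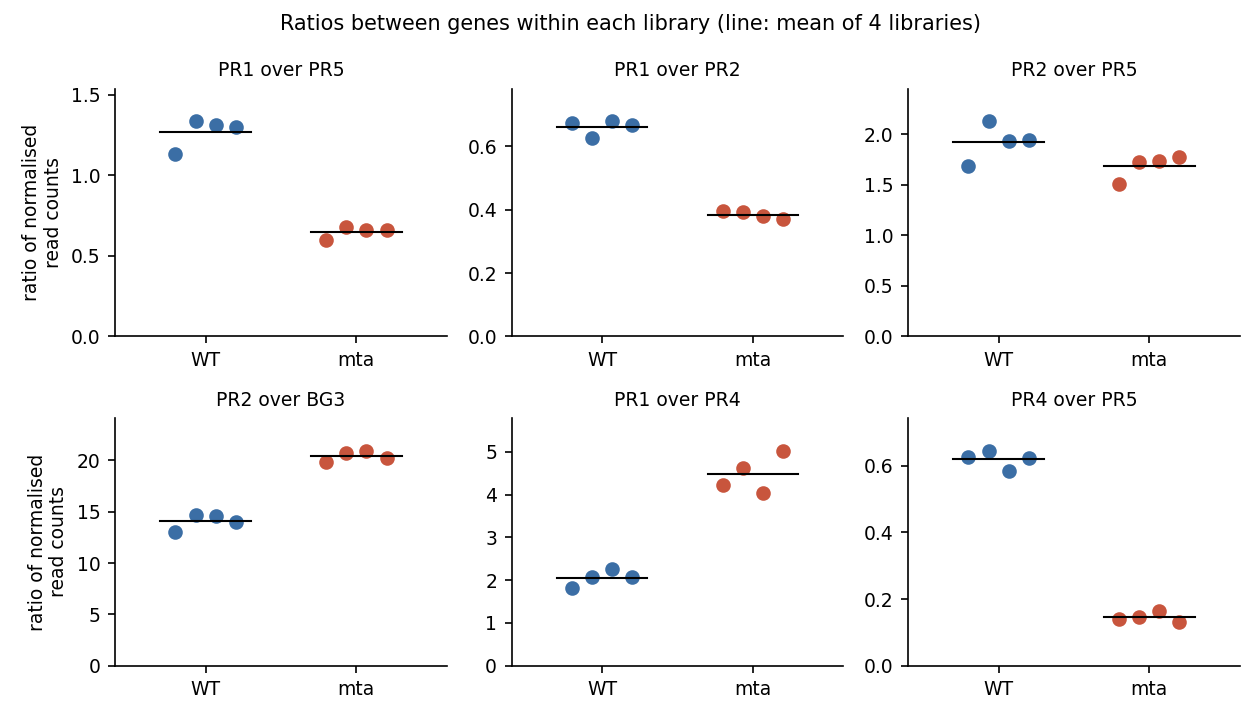
Ratio of normalised read counts between 2 PR genes within each library (points, vertical axes start at 0), with the mean of 4 libraries as a line. PR1 over PR5 falls from above 1 in all WT libraries to below 0.7 in all mta libraries, while PR2 over PR5 overlaps between the genotypes.

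Levels were set beside each other per kilobase of transcript. In WT the order was PR2 (3141 ± 215, SD, n = 4), PR1 (2876 ± 245), PR5 (1882 ± 302), PR4 (1127 ± 192), BG3 (200.4 ± 24.5) and BG1 (4.24 ± 1.69). The ranges of PR2 and PR1 overlapped, and all other neighbours in this order stood apart. In mta the order was PR2 (15972 ± 1745), PR5 (10874 ± 1742), PR1 (8515 ± 1052), PR4 (1536 ± 321), BG3 (698.0 ± 74.7) and BG1 (20.8 ± 3.77), and only PR5 and PR1 overlapped. Among 20582 genes ranked by level per kilobase, PR2 moved from rank 135 in WT to 45 in mta, PR1 from 155 to 68, PR5 from 252 to 60, PR4 from 450 to 340, BG3 from 3119 to 779 and BG1 from 16805 to 12816. Between PR1 and PR4 the ratio of per-kilobase means was 5.54 in mta, with no gene of the 6 between them.

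The chromosomal neighbours of the PR genes were mixed. BG3, PR2 and BG1 lie within 11.5 kilobases of chromosome 3 in that order. AGL16, a MADS-box gene on the BG3 side, was at 150.2 ± 8.1 in WT and 142.9 ± 9.2 in mta (SD, n = 4), and AT3G57280 on the BG1 side was at 275.3 ± 9.2 and 211.4 ± 50.4, and neither passed the test (adjusted p of 0.606 and 0.0728 in limma). AT3G57280 passed, as lower, without mta 1 (adjusted p = 0.0156). AT3G57250, annotated between BG3 and PR2, was not listed in any library. Beside PR5, the thaumatin-like gene TLP-3 rose from 23.3 ± 2.1 to 56.2 ± 13.6 (a ratio of means of 2.41, adjusted p = 0.000627 in limma). Beside PR1, XTH10, a cell wall xyloglucan enzyme, rose from 59.4 ± 8.2 to 90.0 ± 14.1 (log2 fold change 0.59, adjusted p = 0.0126 in limma). IAA16, an auxin response repressor beside PR4, fell from 1129 ± 59 to 757.5 ± 45.4 (log2 fold change -0.58, adjusted p = 0.000764 in limma).

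The protein families were then counted beside the background of 13.3% of all genes called higher and 13.1% lower. The reference annotation holds 38 glycosyl hydrolase family 17 genes, the family of PR2, of which 29 were tested: 6 rose, 3 fell and 20 did not pass, and the median log2 fold change was 0.08, against -0.02 over all genes tested. Without PR2, BG3 and BG1, 3 of 26 rose and 3 fell, 11.5% each way, which is near the background and no result about the family. AT5G42720 (log2 fold change 0.66, adjusted p = 0.00219 in limma) and AT3G07320 (0.69) were among those that rose and AT1G64760 (-0.56) among those that fell. The family had 6 that fell in place of 3 without WT 1 and with the authors' scaling alone, and its median turned to -0.06 with that scaling and -0.01 without mta 3. Of 22 CAP genes, 4 were tested: PR1 rose and AT5G66590 fell (-0.89, adjusted p = 0.0114). Without mta 4, 2 CAP genes rose.

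Among 21 thaumatin-like genes, 14 were tested, of which 5 rose, 2 fell and 7 did not pass, with a median of 0.41. Without PR5 the counts were 4 (30.8%) and 2 (15.4%) of 13, with the same median to 2 decimals, and the share that fell is near the 13.1% over all genes. Osmotin-like OSM34 rose from 38.8 ± 9.4 to 73.5 ± 10.3 (SD, n = 4, log2 fold change 0.92, adjusted p = 0.0031 in limma) and AT1G19320 from 4.61 ± 1.73 to 10.6 ± 2.64. AT1G20030 fell from 78.6 ± 1.85 to 50.9 ± 10.8 (-0.64) and AT4G36010 from 144.0 ± 6.2 to 106.3 ± 16.3 (-0.45). The call for AT4G36010 was lost without WT 2, without WT 4 or without mta 2. No member of the 3 families outside the 6 genes reached the log2 fold change of PR1 among those tested.

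**Figure D4:**
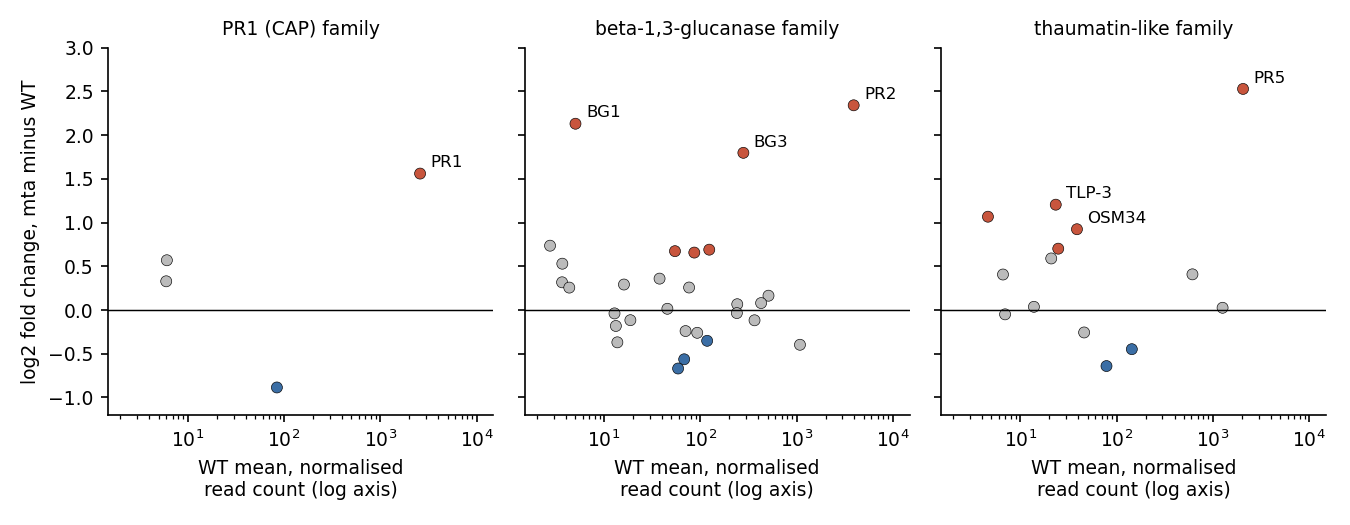
Log2 fold change (mta minus WT) of each tested gene of the CAP, beta-1,3-glucanase and thaumatin-like families against its WT mean (log axis), in red where higher and blue where lower at an adjusted p under 0.05 and grey where not past it. PR1, PR2, BG3, BG1 and PR5 lie above all other members of their families.

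Regulators that act before the PR genes were counted next. Of 31 regulators of salicylic acid synthesis and PR transcription, 30 were tested, of which 8 rose, 4 fell and 18 did not pass, beside 13.3% and 13.1% over all genes, and the median log2 fold change was 0.04, which turned to -0.10 with the authors' scaling alone, -0.01 without WT 1 and -0.04 without mta 4. Without mta 2 the count that rose was 5. The count that fell was 2 when any of WT 2, WT 3, WT 4, mta 2 and mta 3 was left out, the calls lost being those of NPR3 and WRKY18. These lists were chosen with earlier results of these libraries known, so their counts are not independent evidence of direction.

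The 3 genes of salicylic acid synthesis and export all rose, beside 13.3% of all genes tested. ICS1, the isochorismate synthase that begins the pathway in the chloroplast, rose from 384.7 ± 24.4 to 534.3 ± 16.9 (SD, n = 4, log2 fold change 0.47, adjusted p = 0.00206 in limma). EDS5, the transporter that exports isochorismate from the chloroplast, rose from 114.6 ± 6.7 to 217.3 ± 27.3 (0.91), and PBS3, which conjugates it to glutamate, from 111.4 ± 13.4 to 245.3 ± 21.6 (1.14). The groups did not overlap for any of the 3, as for 13.8% of all genes in that direction. In the same list, the 3 genes of the EDS1 node, a group picked after its values were seen, did not pass. Their log2 fold changes ran from -0.02 to 0.14. CBP60G, a transcription factor that activates ICS1, fell from 976.4 ± 51.7 to 704.5 ± 61.4 (-0.47, adjusted p = 0.00376), while its partner SARD1, named after its value was seen, was at 598.0 ± 51.6 and 644.9 ± 49.0 and did not pass, with a log2 fold change of 0.11 that turned to -0.033 with the authors' scaling alone.

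No salicylic acid receptor and no TGA factor passed as higher. NPR1, NPR3, NPR4, NIMIN2, NIMIN3, WRKY18 and the TGA factors are given as the direct route to the PR promoters and were chosen after their values were seen. NPR1 was at 565.6 ± 14.3 in WT and 475.5 ± 38.3 in mta (SD, n = 4, log2 fold change -0.25, adjusted p = 0.0547 in limma), and none of the 7 TGA factors passed, with log2 fold changes from -0.25 to 0.07. NPR1 was called lower without WT 1 (adjusted p = 0.0206) and without mta 1 (0.0481). The receptor NPR3 was called lower (-0.32, adjusted p = 0.0429), and the receptor NPR4 had a log2 fold change of 0.40 that did not pass (0.233) and passed without mta 1 (0.0275). NIMIN2 and NIMIN3, which bind NPR1, were called higher, with log2 fold changes of 0.72 and 0.67. The calls for NPR3 and NIMIN2 were each lost when any of WT 2, WT 3, WT 4, mta 1, mta 2 and mta 3 was left out, and that for NIMIN3 without WT 1, WT 4 or mta 2. Of 8 WRKY factors, 3 rose, 2 fell and 3 did not pass, beside 13.3% higher and 13.1% lower over all genes. WRKY60 rose from 136.6 ± 6.8 to 296.5 ± 47.8 (adjusted p = 0.000105 in limma), and WRKY40 fell from 597.4 ± 22.5 to a mean 0.502 times as high (adjusted p = 0.000145 in limma). WRKY18, the other WRKY factor called lower (-0.59, adjusted p = 0.0270), lost its call when any 1 of the same 6 libraries as for NPR3 was left out.

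The 4 genes of N-hydroxypipecolic acid, the mobile signal of systemic immunity that acts with salicylic acid, all rose, beside 13.3% of all genes tested. Their median log2 fold change was 2.29, and this list too was chosen with earlier results of these libraries known. ALD1, the first enzyme, rose from 23.1 ± 3.2 to 72.0 ± 8.2 (SD, n = 4), and SARD4, the reductase that follows, from 248.7 ± 22.0 to 733.0 ± 110.0. FMO1, which makes the active compound, rose from 8.99 ± 0.84 to 132.0 ± 17.5 (log2 fold change 3.73, adjusted p = 7.04e-08 in limma), and UGT76B1, which attaches glucose to it, from 20.3 ± 2.7 to 165.5 ± 12.2 (2.97).

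Most genes tested for folding and export of secreted proteins rose. Of 20 tested, 14 rose, 1 fell and 5 did not pass, beside 13.3% higher and 13.1% lower over all genes, with a median log2 fold change of 0.79. CNX1, the lectin chaperone calnexin, rose from 742.0 ± 73.6 to 2337 ± 117 (SD, n = 4, log2 fold change 1.66, adjusted p = 1.54e-06 in limma). The calreticulin CRT2 (1.32), the protein disulfide isomerase PDIL1-2 (1.32), the co-chaperone ERDJ3A (1.56) and the stress-inducible chaperone BIP3 (2.53) rose as well. The isomerase PDIL1-1 rose from 682.4 ± 76.4 to 1482 ± 302. BIP3 was at 128.5, 167.6, 121.6 and 307.5 in mta 1 to 4. CNX1, PDIL1-2, ERDJ3A and PDIL1-1 were also highest in mta 4, where all 6 PR genes were lowest, while CRT2 was lowest there. The part of mta 4 in these values was not tested. IRE1A, a sensor of unfolded protein named after its value was seen, was the 1 gene that fell, from 328.3 ± 63.5 to 204.6 ± 17.7 (-0.66, adjusted p = 0.00691).

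The jasmonate and ethylene list, which holds the defence genes often set beside PR4, was counted in the same way. Of 14 tested, 2 rose (14.3%), 3 fell (21.4%) and 9 did not pass, of which the share that rose is near the 13.3% over all genes, with a median log2 fold change of 0.09 that turned to -0.05 with the authors' scaling alone and -0.01 without mta 1. PR3, a basic chitinase, rose from 81.6 ± 13.4 to 153.7 ± 38.5 (SD, n = 4, log2 fold change 0.88, adjusted p = 0.00431 in limma), and LOX2, a lipoxygenase of jasmonate synthesis, rose by 1.12. VSP2 and VSP1, vegetative storage proteins induced by jasmonate, fell by 0.99 and 0.45, and the plant defensin PDF1.2B fell by 0.70, the only one of 4 defensin genes to pass. The counts depended on single libraries: 5 rose and 5 fell without mta 4, 5 fell without WT 1, and 1 fell without WT 3, without WT 4 or without mta 2, where VSP1 and PDF1.2B lost their calls.

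Senescence genes were given because several PR genes also rise in ageing leaves. Of 11 tested, 3 rose (27.3%), 3 fell (27.3%) and 5 did not pass, beside 13.3% and 13.1% over all genes. The median log2 fold change of -0.06 turned to 0.01 when mta 4 was dropped and to 0.04 when WT 1 and mta 1 were dropped as well. SAG12, a cysteine protease of natural senescence, fell from 67.4 ± 7.3 to 7.23 ± 2.86 (SD, n = 4, log2 fold change -3.11, adjusted p = 7.33e-06 in limma), and SAG29, a sugar transporter, fell from 185.9 ± 19.3 to a mean 0.0590 times as high. SAG13, a dehydrogenase gene that also responds to pathogens, rose from 1361 ± 75 to 2887 ± 518 (1.07, adjusted p = 0.000204). SEN4 (0.55) and NAP (0.33) were the others that rose and SEN1 (-0.81) the other that fell, and the call for NAP was lost without WT 4 or mta 2.

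**Figure D5:**
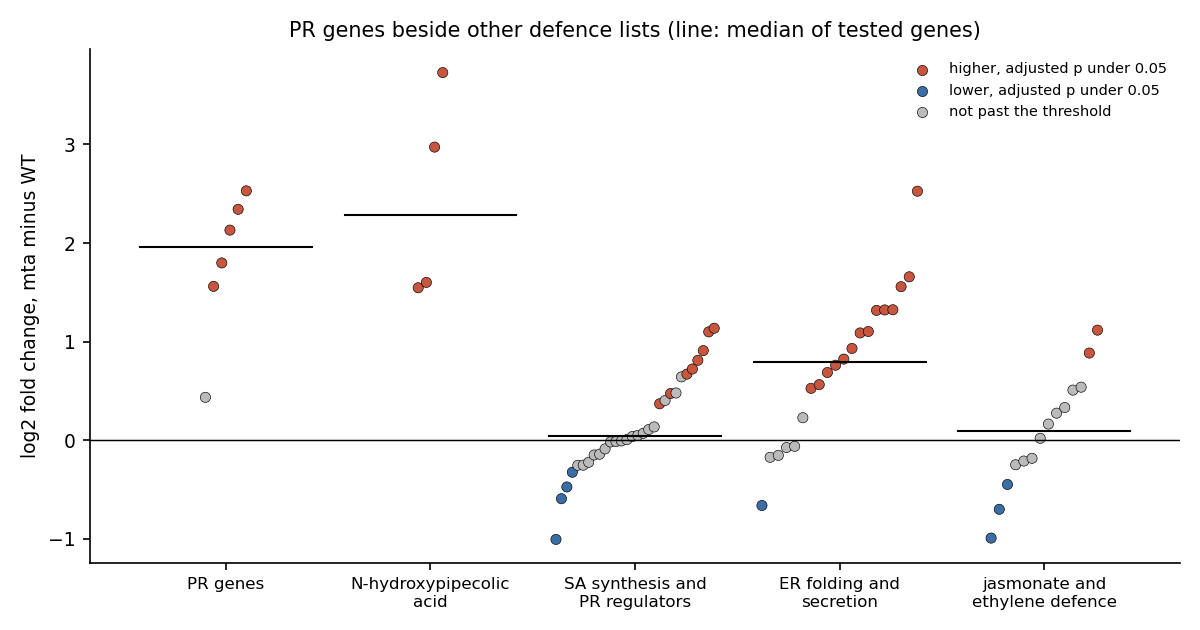
Log2 fold change (mta minus WT) of each tested gene in the PR list and in 4 other defence lists, in red where higher and blue where lower at an adjusted p under 0.05 and grey where not past it, with the median of each list as a line. The PR genes (median 1.96) and the 4 N-hydroxypipecolic acid genes (2.29) stand higher than the regulators (0.04) and the jasmonate and ethylene list (0.09), with the folding genes between them (0.79).

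Genes whose profile over the 8 libraries was most like each PR gene were found by the root mean square (RMS) difference of log2(value + 1) after subtracting the WT mean, among all genes tested, which share the same libraries and scaling. The gene most like PR2 was CHI (AT2G43570), annotated as a chitinase, with an RMS difference of 0.046 on the log2 scale. It was at 965.9, 887.2, 887.4 and 999.6 in WT and at 5062, 4841, 5261 and 3873 in mta, which is the order of libraries that PR2 had in mta with mta 3 highest and mta 4 lowest. CHI was picked for likeness to PR2 over these same libraries, so a shared order follows largely from the choice. The next were CAX3, a vacuolar cation exchanger (0.074), and TAT3, a tyrosine aminotransferase (0.078). For PR1 the nearest was SARD4 (0.053), followed by the glutathione S-transferase GSTU4 and the transcription factor SMZ (both 0.075).

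BG3 was nearest to CYP71A13, a cytochrome P450 of camalexin synthesis (0.077), then PNP-A, a secreted natriuretic peptide-like protein (0.092), and AT5G10760, an aspartyl protease (0.106). The nearest genes to PR4 were HAI1, a clade A protein phosphatase (0.051), CLH2, a chlorophyllase (0.062), and AT5G44170 (0.077), and like PR4 all 3 did not pass the test, overlapped between genotypes and passed without mta 4. They were picked for likeness to PR4 over these same libraries, so these shared traits follow largely from the choice. PR5 had looser matches, namely IPT7, a cytokinin synthesis gene (0.150), PR2 (0.171) and AT1G59920 (0.177). BG1 had the loosest, AT2G04460 (0.221), PCR1 (0.230) and AT5G47590 (0.265). Among the PR genes themselves the closest pairs were PR2 with PR5 (0.171) and PR1 with BG3 (0.175), and the farthest was PR4 with PR5 (1.48). The measure keeps the difference between genotypes, so these distances in part restate the log2 fold changes. Those were 2.34 and 2.53, 1.56 and 1.80, and 0.44 and 2.53.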

How the data were processed

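Poly(A) RNA-seq of leaves was compared between 4 WT and 4 mta libraries. The deposited values are a signal per gene, which the authors made from read counts divided by 1 factor per library: low values in every library are whole multiples of 1 step, and rows under 1 are not listed. The submitters' processing notes list STAR 2.4.0, HTSeq, DESeq2 and the TAIR10 build, and strand handling is not given in the sources used here. The files also hold rows for reads outside genes (4.92% to 5.97%), ambiguous reads (0.359% to 0.406%) and reads with several alignments (6.06% to 9.07%), which were left out. Genes held 17132911 to 25377337 steps a library, and 19204 to 19716 genes were listed. A step was not shown to be a single read, so no count model was used and no counting interval is given.

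Libraries were brought to 1 scale with TMM factors (0.869 to 1.09), and log2(value + 1) of genes at 3 or more in 4 or more libraries was tested in limma (version 3.58.1, R version 4.3.3), letting the variance prior follow the mean, without a replicate block, with Benjamini-Hochberg adjustment over 18328 genes at 0.05. Pairs of genes were compared by two-sided exact permutation tests. The fit was tested on simulated data. Python 3.11.15, Biopython 1.88 and matplotlib 3.10.9 were used for the rest. Sequences and neighbours come from RefSeq's TAIR10.1 annotation, and the closest paralogue was taken by coding sequence identity, since no protein table was used here. The sequence upstream of PR1 is not reported here. The members and lists were chosen with earlier results of these data known. Named genes were the 6 members, MTA, the nearest gene on each side, the closest paralogue, the 3 genes most alike in profile, and from each list up to 6 genes past the threshold with the smallest adjusted p; any other gene named is said to be chosen after its values were seen. Alternatives covered scaling, filter, pseudocount, trend, transcript length, replicate block and leaving out libraries.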

Additional observations from a re-analysis of the deposited data

Results flagged for a closer look

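Among 192 groups of 4 libraries screened, 7 held 1 library far from the other 3. Chance gives about 1 in 20 groups, so 7 is not more than chance gives. The groups share the same libraries and are not independent. WT 1 stood apart in 6 of the 7. Among genes of ER protein folding, PDIL1-2 was at 380.6 in WT 1 and at 316.2 to 323.6 in the other WT libraries, CRT2 at 1129 and 868.6 to 894.7, and PDIL1-1 at 796.7 and 638.5 to 650.4. Among the genes most like PR4 in profile, CLH2 was at 67.6 in WT 1 and at 48.1 to 51.2 in the others, and AT5G44170 at 75.2 and 54.6 to 55.6. NPR1 was lower in WT 1, at 544.4, than in the other WT libraries, at 571.0 to 575.5. SMZ, among the genes most like PR1, was at 16.9 in mta 4 and at 21.9 to 22.8 in the other mta libraries. After scaling, WT 1 was also the highest WT library and mta 4 the lowest mta library for all 6 PR genes, and the part of these libraries in the values was not tested.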

How the results depend on the processing

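PR1, PR2, BG3, BG1 and PR5 stayed higher and past the threshold in all 19 alternatives, with log2 fold changes of 1.42 to 1.69, 2.20 to 2.46, 1.66 to 1.92, 1.68 to 2.33 and 2.39 to 2.67. PR4 passed with the transcript length trend removed (0.41, adjusted p = 0.0161 in limma), without WT 1, without mta 4 and with WT 1, mta 1 and mta 4 left out together (0.67), and ranged from 0.31 to 0.58 when 1 library was left out. MTA did not pass with upper-quartile factors (-0.45, adjusted p = 0.0532), with WT 2 and WT 3 averaged (-0.48, 0.0743) or with the 3 libraries out (-0.29, 0.0611), and ranged from -0.62 to -0.44 when 1 library was left out. The number of genes called was 4842, ranged from 3192 to 6543 when 1 library was left out, and was 8292 with the 3 out. With the authors' scaling alone 5920 were called, 1671 higher and 4249 lower (28.2% higher in place of 50.3%), and the median over all genes was -0.16 in place of -0.02; the share was 61.5% with upper-quartile factors. Of the 15 pairs, 10 to 13 passed when 1 library was left out, 11 with a pseudocount of 0.5 and 12 with 4, and 0 passed with the 3 libraries out or under the replicate block, where too few assignments remain to pass. The difference of BG3 and BG1 turned to 0.10 with a pseudocount of 4. Same-numbered libraries did not deviate together (correlations -0.35 to 0.47, 1 of 4 over 0.1, and 3 of 8 libraries correlated best with their own number), so the numbers were not used as pairs; the replicate block gave 4516 genes called, PR4 at 0.44 (adjusted p = 0.0565), and kept the calls of the other 5 members. Of 73 other named genes, 53 kept direction and call in all alternatives and 20 did not; SARD1 turned to -0.033 with the authors' scaling alone, and the cause of these changes was not tested. A count model on recovered reads was planned and not run, since the reads could not be recovered. BG1, at 11 to 25 steps in WT, is the member most limited by depth.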
